A study of Homo sapiens with 6 samples.

Results

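Cells copy most of their DNA without a break, but some sequences slow the replication machinery. Long stretches in which one strand holds purines and the other pyrimidines can fold back into triplexes, runs of G can form quadruplexes, and alternating purine and pyrimidine bases such as GT repeats can turn into left-handed DNA. ERCC6L2 is an ATPase of the SNF2 family, a group of motors that move along DNA and remodel chromatin. This account describes 1381 stretches of the chromosome arms that were in the consensus peak list of newly made DNA from control cells. They had no overlap in the consensus list from cells without ERCC6L2, and they hold no long purine tract.

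The study pulsed U2OS cells, a human osteosarcoma line, with BrdU for 2 h, so that newly made DNA carried this analogue of thymidine, sheared the DNA and sequenced the fragments pulled down with an antibody against BrdU. There were 3 control samples and 3 ERCC6L2-/- samples, all from asynchronous cells, so that DNA of every part of S phase was present in both. The ERCC6L2-/- cells were made with CRISPR-Cas9 and grown out as clones, and the labels do not say which clone each sample came from. The values used here are 2 consensus peak lists, each merged over the 3 samples of one genotype, with one score for each peak, the −log10 of the merged p-value.

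The members were chosen by the overlap of the lists, by position and by sequence. Of 10285 control consensus peaks, 3371 (32.8%) shared no base with an ERCC6L2-/- consensus peak. Of these, 3246 lay on chromosomes 1 to 22 or X, 2961 of them also over 3 Mb from a chromosome end, and 2646 of those over 5 Mb from the listed centre of the centromere. A run of at least 30 bases that were all purines or all pyrimidines removed 1265 more and left 1381. Among the 4319 control peaks that met the position and sequence limits, the 1381 members were 32.0%. Among those at or above the median score of the list, which was the highest score recorded, the share was 17%. The 2938 control peaks within these limits that overlapped an ERCC6L2-/- peak are called shared peaks here. In the ERCC6L2-/- list, 494 of 3459 such peaks (14.3%) had no overlap in the control list. These shares describe the choice and test nothing, and neither the number of mapped reads behind the lists nor the spread between replicates can be seen in merged lists. Nor can it be seen whether a single ERCC6L2-/- sample had a peak at a member.

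The sequences printed first are extremes of the members and not typical ones. They are the single-copy members with the highest share of purines on one strand in their central 300 bases, outside untranslated regions and without a 7SL-derived match of at least 50 bases. The median member had 67.7% purines on its purine-rich strand there, and the 95th percentile was 82%. The printed windows thus lie above most members. The sequences are read from hg38 along the purine-rich strand, with the longest unbroken purine run in capitals. The COG4 peak (window chr16:70482919-70483218, minus strand) overlapped coding sequence of a subunit of the Golgi tethering complex. The next (chr10:130360312-130360611, minus strand) lay in an intron of the non-coding gene LINC02646, and the last (chr14:96627500-96627799, plus strand) lay outside annotated genes. Positions given with sequences are those of the printed windows, whereas the gene labels are those of the whole peaks.
COG4: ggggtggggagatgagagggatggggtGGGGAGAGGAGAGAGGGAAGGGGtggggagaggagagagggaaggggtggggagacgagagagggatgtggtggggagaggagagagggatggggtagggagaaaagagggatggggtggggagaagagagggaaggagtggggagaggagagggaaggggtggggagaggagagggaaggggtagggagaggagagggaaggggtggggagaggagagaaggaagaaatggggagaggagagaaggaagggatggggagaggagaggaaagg
LINC02646: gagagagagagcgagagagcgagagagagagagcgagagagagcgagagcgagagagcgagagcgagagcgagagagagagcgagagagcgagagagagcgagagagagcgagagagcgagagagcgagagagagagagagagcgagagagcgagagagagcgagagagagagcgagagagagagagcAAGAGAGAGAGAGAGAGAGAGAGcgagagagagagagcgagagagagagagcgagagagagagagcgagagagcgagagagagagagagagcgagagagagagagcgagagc
chr14: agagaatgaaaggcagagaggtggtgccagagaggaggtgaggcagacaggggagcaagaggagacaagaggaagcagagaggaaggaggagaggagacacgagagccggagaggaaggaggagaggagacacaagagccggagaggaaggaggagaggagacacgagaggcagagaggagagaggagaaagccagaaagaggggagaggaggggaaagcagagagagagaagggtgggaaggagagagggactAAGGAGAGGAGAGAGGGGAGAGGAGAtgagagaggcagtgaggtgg

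In these windows 93.3%, 91% and 89% of bases were purines, yet the longest runs were of 23, 23 and 26 bases. Pyrimidines broke the purine strand at short intervals, so that none met the 30-base limit for a tract.

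A smaller set of members was rich in G and T on one strand. The single-copy member with the highest share (chr5:31364180-31364479, plus strand) held 95.7% G or T, with its longest unbroken G and T run in capitals. Beside it stands the single-copy ERCC6L2-/- -only peak of highest score, with ties ordered by width, under the same limits (chr4:180566483-180566782, plus strand).
chr5, control-only: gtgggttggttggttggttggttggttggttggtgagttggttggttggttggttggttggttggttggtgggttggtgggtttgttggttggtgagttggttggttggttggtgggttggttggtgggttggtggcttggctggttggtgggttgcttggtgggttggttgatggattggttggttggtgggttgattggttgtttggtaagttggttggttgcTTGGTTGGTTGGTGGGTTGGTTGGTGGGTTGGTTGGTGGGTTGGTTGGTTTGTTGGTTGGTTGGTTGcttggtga
chr4, ERCC6L2-/- -only: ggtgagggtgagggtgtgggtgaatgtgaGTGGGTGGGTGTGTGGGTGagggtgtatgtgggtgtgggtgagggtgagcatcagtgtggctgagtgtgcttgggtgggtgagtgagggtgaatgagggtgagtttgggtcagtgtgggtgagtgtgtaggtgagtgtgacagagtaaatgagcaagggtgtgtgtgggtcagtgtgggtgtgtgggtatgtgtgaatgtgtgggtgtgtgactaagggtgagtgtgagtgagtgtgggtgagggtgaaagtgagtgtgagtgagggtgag

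Each strand of a window is the complement of the other, so the share of purines and the share of G and T were both taken on the richer strand and run from 50% to 100%. A window is called purine-skewed here where at least 60% of the richer strand was purine and this share was the larger of the pair, and GT-skewed where the same held for G and T. Both measures were set up after the sequences had been seen, and they are related to the run length that the rule used, so they are given as descriptions.

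Although no member held a tract, most were purine-skewed. Of the 1381, 914 (66.2%, Wilson 95% interval 63.7% to 68.6%) were purine-skewed, 418 (30.3%) were GT-skewed and 49 were neither. In the shared peaks the order was turned, with 33.5% purine-skewed and 64.1% GT-skewed among 2934 whose central bases are known. The ERCC6L2-/- -only peaks lay between them, with 51.6% and 37.5%. Of all consecutive 300-base windows of the same arms without a tract, 12.2% were purine-skewed and 6.91% GT-skewed, so skewed sequence of either kind was much more frequent in every peak group than in the arms. Here and below, intervals on shares cover counting error only. Arm windows of 300 bases are shorter than the whole peaks set beside them below, so shares for GC, genes and starts are not at like width.

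**Figure D1:**
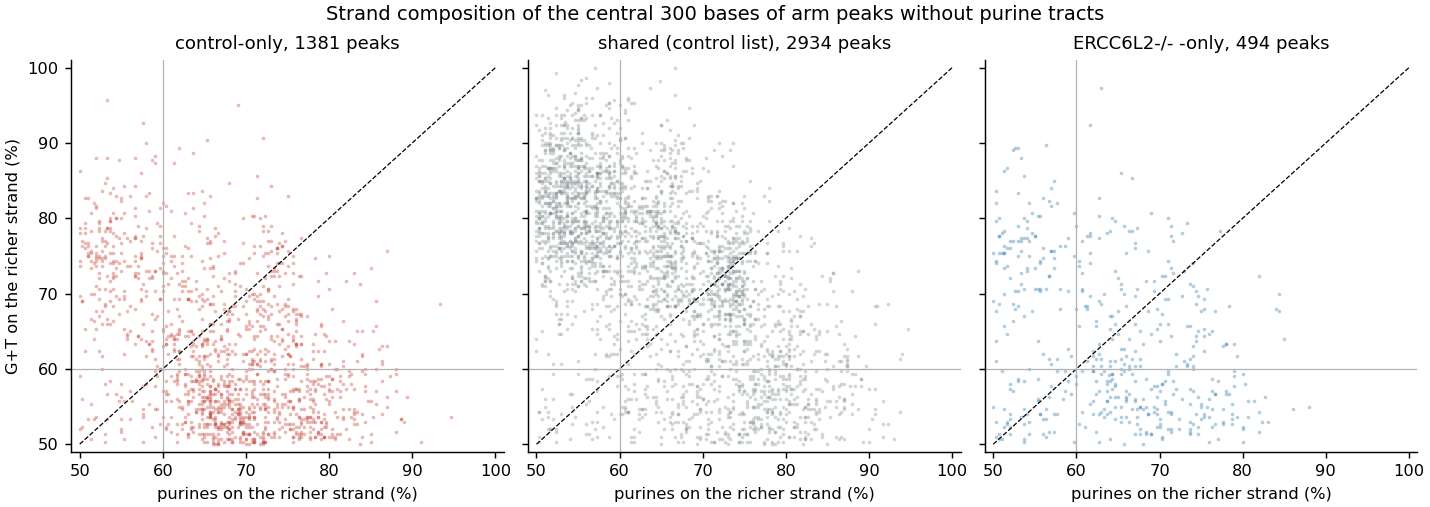
Strand composition of the central 300 bases of each peak, with the share of purines on the richer strand (percent, x axis) against the share of G and T on the richer strand (percent, y axis). Each point is a peak of the control-only, shared or ERCC6L2-/- -only group, grey lines mark 60%, and the dashed line marks equal shares. The control-only points gather at the lower right (66.2% purine-skewed) and the shared points at the upper left (64.1% GT-skewed).

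On the purine-rich strand the median member held 32% A, 37% G, 12% C and 18.7% T. The median shared peak held less A (25.3%) and more G (42.3%), less C (6.67%) and more T (24.7%). Where only purine-skewed peaks were taken, members and shared peaks had similar A (33% and 32%) but members had less G (37.3% against 42.7%). The purine-rich strand was the plus strand in 718 of the 1381 members, so neither strand of the reference was preferred by much.

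Members were weaker and narrower peaks than shared ones, which bears on each comparison below. Their scores ran from 61.9 upward with a median of 267, and 37.8% stood at the ceiling of the score (recorded as infinite, above 310.576), against 86.7% of the shared peaks and 25.3% of the ERCC6L2-/- -only peaks. The median score of each whole list stood at this ceiling, so peaks at or above the median score are those at the ceiling throughout. Median widths were 566 bases in members, 749 in shared peaks and 506 in ERCC6L2-/- -only peaks. Scores and widths are from the list that chose the members and carry no test. The purine skew was also present within strata of both. Scores were split only at the ceiling, so they were not matched within a stratum. At the ceiling 56.5% of members and 30.4% of shared peaks were purine-skewed, below it 72.1% and 53.9%, and at widths of 450 to 700 bases 69.95% and 35.7%. Of the ERCC6L2-/- -only peaks, 30.4% at the ceiling and 58.8% below it were purine-skewed. What part score and width had in the other results was tested only by the alternatives named with them.

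Read the other way, the sequence of a control peak went with its absence from the ERCC6L2-/- list. Of the 447 control arm peaks whose longest run was 1 to 6 bases, 13.4% were absent from that list, and of those with runs of 7 to 9 bases 17.3%. The share was 31.8% at 10 to 14 bases, 47.9% at 15 to 19, 51.5% at 20 to 24 and 51.3% at 25 to 29. Past the 30-base limit it was 46.2% at 30 to 39 bases, 52.96% at 40 to 59 and 55.4% at 60 bases or more. The share thus differed little between classes from 15 bases on, and the limit of 30 bases lay inside that stretch. At the limit itself, control-only arm peaks with longest runs of 28 and 29 bases numbered 21 and 31, and those just outside with runs of 30 and 31 bases numbered 21 and 18. In the ERCC6L2-/- list the share absent from the control list was 9.06% at 1 to 6 bases and between 17.6% and 23.6% in each class from 10 bases on.

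G and T showed the opposite order. Among control arm peaks without tracts, 58.0% of those with a G and T share of 50% to 55% on the richer strand were absent from the ERCC6L2-/- list. This share was 48.7% at 60% to 65%, 24.7% at 70% to 75% and 7.15% at 80% or more. The ERCC6L2-/- list had the same order at a lower level, from 30.6% in the lowest class to 3.55% in the highest. By purine share, control peaks without tracts were absent in 19.7% at 50% to 55%, in 43.5% at 65% to 70% and in 30.8% at 80% or more. Among peaks without tracts, the most purine-rich were thus not the ones most often missing. Peaks with tracts are not in these classes. Purine-skewed control peaks were absent in 48.2% (914 of 1898), GT-skewed ones in 18.2% (418 of 2298) and those of neither skew in 41.2% (49 of 119). GT-skewed peaks thus stood apart by their low share. In the ERCC6L2-/- list the shares were 20.25% for purine-skewed, 8.89% for GT-skewed and 46.15% for neither.

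**Figure D2:**
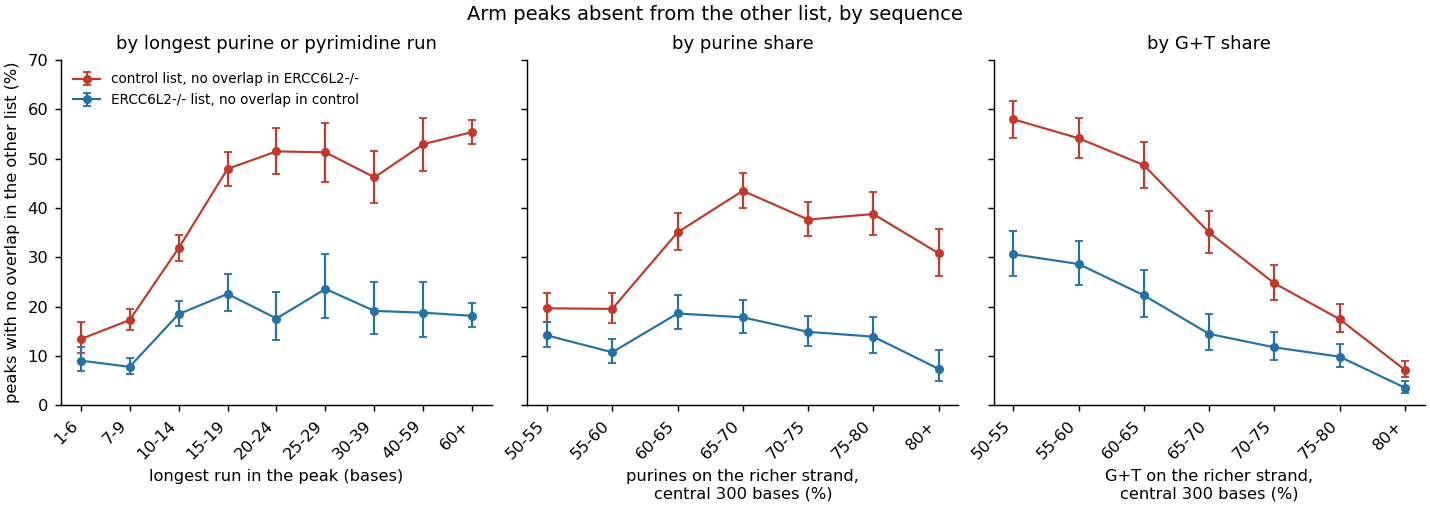
Share of arm peaks with no overlap in the other genotype's list (percent, y axis) by longest purine or pyrimidine run in bases (left, all arm peaks), by purine share (middle) and by G and T share of the richer strand (right, both for peaks without tracts). Red points are control peaks, blue points ERCC6L2-/- peaks, and bars are Wilson 95% intervals. The control share is 13.4% at the shortest runs and 46.2% to 55.4% from 15 bases on, and it is 58.0% in the lowest and 7.15% in the highest class of G and T share.

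Features that the rule did not use were compared by two-sided Fisher's exact tests on numbers of peaks, 7 features against each of 2 groups, with Benjamini-Hochberg adjustment over the 14. Peaks are not replicates, so each test compares lists and not conditions. After adjustment 9 of the 14 passed 0.05. For each alternative setting, its p-value replaced the main one, and the other main p-values were kept for the adjustment.

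Tandem repeats gave the largest difference from the shared peaks. A tandem repeat was called where at least 90% of 60 consecutive bases matched the base a fixed lag of 1 to 60 bases downstream. It was found in 300 members (21.7%) and in 1312 shared peaks (44.7%), a difference of -22.9 percentage points (95% interval -25.7 to -20.1, adjusted exact p = 8.21e-49). The ERCC6L2-/- -only peaks, at 23.3%, did not differ past the threshold (interval -6.00 to 2.62 points, adjusted exact p = 0.569). Shared peaks are wider, and at like length the difference was smaller. In the central 300 bases 16.5% of members and 30.3% of shared peaks held such a repeat (-13.75 points, adjusted exact p = 9.35e-22). At widths of 450 to 700 bases the difference was -14.6 points (adjusted exact p = 7.08e-12). Of windows of the arms 0.520% held one, so members were poor in tandem repeats only beside the shared peaks.

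Where members did hold a repeat, its best match was more often at a short lag. The lag is the smallest one with the best match, and it can be longer than the repeat unit. Of the 300 members, 66 (22%, interval 17.7% to 27.0%) had a lag of 1 to 6 bases, against 10.1% (8.55% to 11.8%) of the 1312 shared peaks and 9.57% of 115 ERCC6L2-/- -only peaks. Lags of 2 and 4 bases made up 26 and 35 of the members. Lags of 21 to 60 bases made up 64.3% in members and 74.7% in shared peaks. Peaks were not matched for width in this count, and unit length was not measured.

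Words of 12 bases in excess in members over shared peaks included purine repeats. The words were picked for this excess, so their shares are a description and no test. AGAGAGAGAGAG (read on both strands, as all words here) was in 119 members (8.62%), 5.07% of shared peaks and 3.44% of ERCC6L2-/- -only peaks. GAGAGAAAGAGA was in 47 members (3.40%) against 1.74% and 0.810%, and AAAAAAAAAAAA in 45 (3.26%) against 1.12% and 1.42%.

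Alu sequence was looked for only as matches to 7SL RNA, and few members held one. No repeat annotation was used and no share was taken for arm windows, so the content of Alu elements as such was not measured. A match of at least 50 bases to RN7SL1, the 7SL RNA gene from which Alu elements derive, was found in 48 members (3.48%) and 51 shared peaks (1.74%), a difference of 1.74 points (interval 0.738 to 2.92, adjusted exact p = 0.00180). With a minimum of 75 bases the difference was 0.159 points and was lost (adjusted exact p = 0.692). Against the ERCC6L2-/- -only peaks (3.85%) it did not pass (interval -2.62 to 1.39, adjusted exact p = 0.726).

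Most members were single-copy sequence. In 1143 members (82.8%) at least 90% of 50-base words occurred once in the reference, against 75.3% of shared peaks (difference 7.48 points, interval 4.90 to 9.96, adjusted exact p = 8.76e-08) and 75.7% of ERCC6L2-/- -only peaks (7.06 points, interval 2.92 to 11.5, adjusted exact p = 0.00195). Among peaks of 450 to 700 bases the difference from the shared peaks was 3.13 points and did not pass (adjusted exact p = 0.0926), and at or above the median score neither did the 7.53 points from the ERCC6L2-/- -only peaks (adjusted exact p = 0.0733). No single-copy word at all was found in 1.59% of members, 1.70% of shared peaks and 4.45% of ERCC6L2-/- -only peaks.

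Members had less G and C than either comparison group. At least 50% of bases were G or C in 607 members (43.95%), 49.2% of shared peaks (difference -5.26 points, interval -8.43 to -2.07, adjusted exact p = 0.00273) and 64.6% of ERCC6L2-/- -only peaks (-20.6 points, interval -25.5 to -15.6, adjusted exact p = 1.82e-14). Of arm windows without a tract, 14.7% reached 50%. Among peaks at or above the median score of their lists the difference from the shared peaks was -1.76 points and did not pass (adjusted exact p = 0.569).

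The regions around members were also less GC-rich than those around shared peaks. In the 100 kb around the peak, 50.7% of members and 63.9% of shared peaks reached 45% G and C (difference -13.2 points, interval -16.3 to -10.0, adjusted exact p = 2.26e-15). Around ERCC6L2-/- -only peaks the share was 51.2% (interval of the difference -5.64 to 4.60, adjusted exact p = 0.875). All 3 groups stood far above the 16.9% of arm windows in such surroundings. GC-rich regions are as a rule gene-dense and replicate early, and replication time was not measured here.

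**Figure D3:**
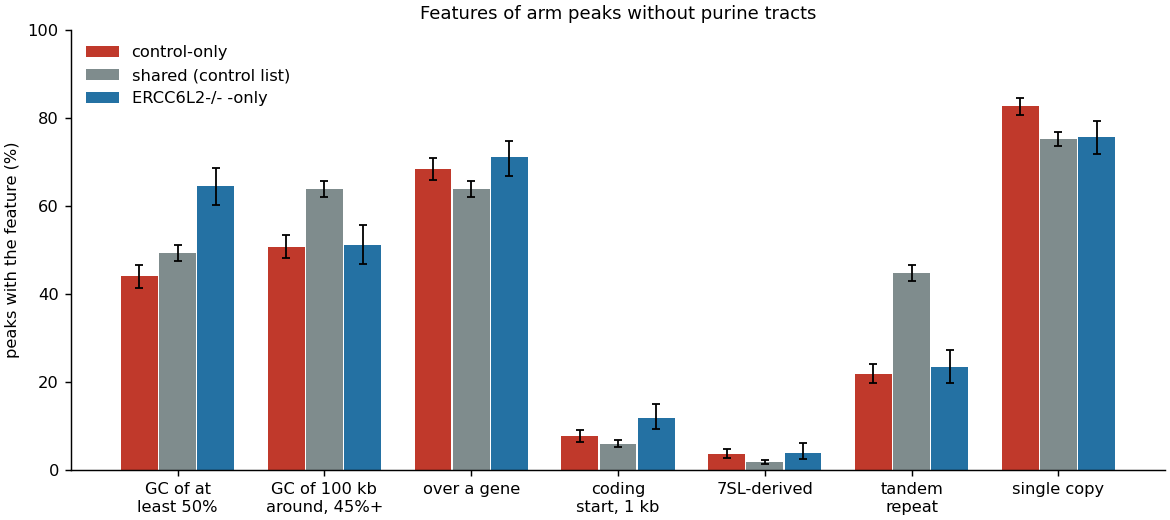
Share of peaks (percent, y axis) with each of the 7 tested features in control-only members, shared control peaks and ERCC6L2-/- -only peaks, all in arms and without purine tracts. Bars are shares and error bars Wilson 95% intervals. Members stand apart from shared peaks in tandem repeats (21.7% against 44.7%) and from ERCC6L2-/- -only peaks in GC content (43.95% against 64.6%).

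Genes of GENCODE release 44 were overlapped by 946 members (68.5%) and by 63.9% of shared peaks (difference 4.65 points, interval 1.62 to 7.62, adjusted exact p = 0.00500). At widths of 450 to 700 bases this was 0.769 points (adjusted exact p = 0.826), and at or above the median score 3.53 points (adjusted exact p = 0.189), neither past the threshold. The ERCC6L2-/- -only peaks (71.1%) did not differ past it (interval -7.12 to 2.24, adjusted exact p = 0.391), and 63.0% of arm windows overlapped a gene. Protein-coding genes were overlapped by 54.02% of members, mostly in introns: 45.3% of members lay in such an intron alone, 8.76% touched an exon and 5.00% coding sequence. A further 14.5% overlapped non-coding genes only, and 31.5% no annotated gene.

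Within 1 kb of the start of a protein-coding transcript lay 104 members (7.53%), fewer than the 11.7% of ERCC6L2-/- -only peaks (difference -4.21 points, interval -7.60 to -1.25, adjusted exact p = 0.0103). The shared peaks had 5.92% (1.61 points, interval 0.0389 to 3.32, adjusted exact p = 0.0648), and 2.75% of arm windows lay so near a start. The first difference did not pass at widths of 450 to 700 bases (-3.22 points, adjusted exact p = 0.243) or at or above the median score (-1.75 points, adjusted exact p = 0.683). At 5 kb it was -0.129 points and was lost (adjusted exact p = 0.947), while the second was 4.67 points and passed (adjusted exact p = 3.18e-04). Members at the score ceiling near a start included those at LMTK3, a kinase gene (85.7% purines in the central bases), ZNHIT6, a gene of small nucleolar RNP assembly (74.3%), PDGFRB, the gene of a growth factor receptor (74.7%), and ASGR2, the gene of a subunit of the asialoglycoprotein receptor, which was GT-skewed instead (88% G or T). These were named after their values were seen.

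Coding genes that held most members were long and the members in them intronic. CAMTA1 (ENSG00000171735.21, chr1:6785454-7769706), a calmodulin-binding transcription activator, held 7 members, 4 shared peaks and 0 ERCC6L2-/- -only peaks. At the mean density of members over the arms a stretch of its 984 kb would hold 0.53. CAMTA1 was named for its count and density differed between chromosomes, so this value is background and no test. Of the 7, 6 were GT-skewed and 4 stood at the score ceiling, and the nearest ERCC6L2-/- peak was 37.2 kb from any of them. RBFOX3 (ENSG00000167281.20, chr17:79089345-79611051), a splicing factor of neurons, held 6 members and 7 shared peaks, of which 3 members were purine-skewed and 3 GT-skewed. The central window of the RBFOX3 member of highest score and width, chr17:79569980-79570279 (plus strand), is shown to set a degenerate GGAT-like repeat beside the purine-rich windows above. Its longest purine run is in capitals.
RBFOX3: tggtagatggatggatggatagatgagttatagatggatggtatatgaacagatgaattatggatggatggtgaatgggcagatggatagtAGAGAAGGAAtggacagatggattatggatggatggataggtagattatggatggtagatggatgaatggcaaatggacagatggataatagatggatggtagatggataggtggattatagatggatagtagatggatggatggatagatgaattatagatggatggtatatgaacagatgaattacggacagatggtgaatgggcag

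MUC16, a large mucin gene, PTPRM, a receptor tyrosine phosphatase gene, RPS6KA2, a ribosomal S6 kinase gene, and SLIT3, the gene of a secreted guidance protein, held 4 members each. CDH22 and CDH23 (cadherins), HIVEP3 (a zinc finger factor), ICA1 (an islet autoantigen), KIRREL3 (an adhesion molecule), SHANK2 (a postsynaptic scaffold) and TTC7B (a partner of a phosphatidylinositol kinase) held 3 each. In none of these 13 genes did an ERCC6L2-/- -only peak fall, but the genes were picked for their members and the arms as a whole held 1.91 such peaks per 10 Mb, so nothing is read from this. All of their members lay in introns alone except 1 in TTC7B. The kind of sequence differed between genes. The 4 members of PTPRM, the 4 of SLIT3 and the 3 each of CDH23 and ICA1 were all purine-skewed, the 3 of KIRREL3 all GT-skewed. Another 59 coding genes held 2 members and 622 held 1. SHANK2 had 11 shared peaks beside its 3 members, whereas CDH22 and TTC7B had 0.

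Lists of genes were counted as well. Coding genes over 500 kb long held 103 members (7.46%), close to the 7.69% of shared peaks and 6.68% of ERCC6L2-/- -only peaks. These genes span 270 Mb, and the arms hold 2589 Mb. The 18 genes of common fragile sites, long genes at which chromosomes break when replication is slowed, span 29.3 Mb. They held 4 members (0.290%), with 0.272% of shared peaks and 1.01% of ERCC6L2-/- -only peaks, a difference that was not tested. The 18 genes of the SNF2 family span 2.11 Mb and held 0 members and 1 shared peak. At the mean of 5.33 members per 10 Mb of arm, few could fall in so short a span.

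Members were spread over all chromosomes but unevenly. There were 5.33 per 10 Mb of arm in all, from 0.861 on X to 24.6 on chromosome 19, with 14.7 on both 20 and 22. The share of control peaks that were control-only did not follow this density. It was 18.8% on chromosome 21, 20.2% on 16, 46.1% on 6 and 54.5% on X (interval 34.7% to 73.1%), against 32.0% in all. Members outnumbered ERCC6L2-/- -only peaks on every chromosome, by 1.2 to 1 on X and 6.45 to 1 on chromosome 20, and by 2.8 to 1 in all. U2OS cells carry gains and losses of chromosome parts, and copy number was not used here.

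**Figure D4:**
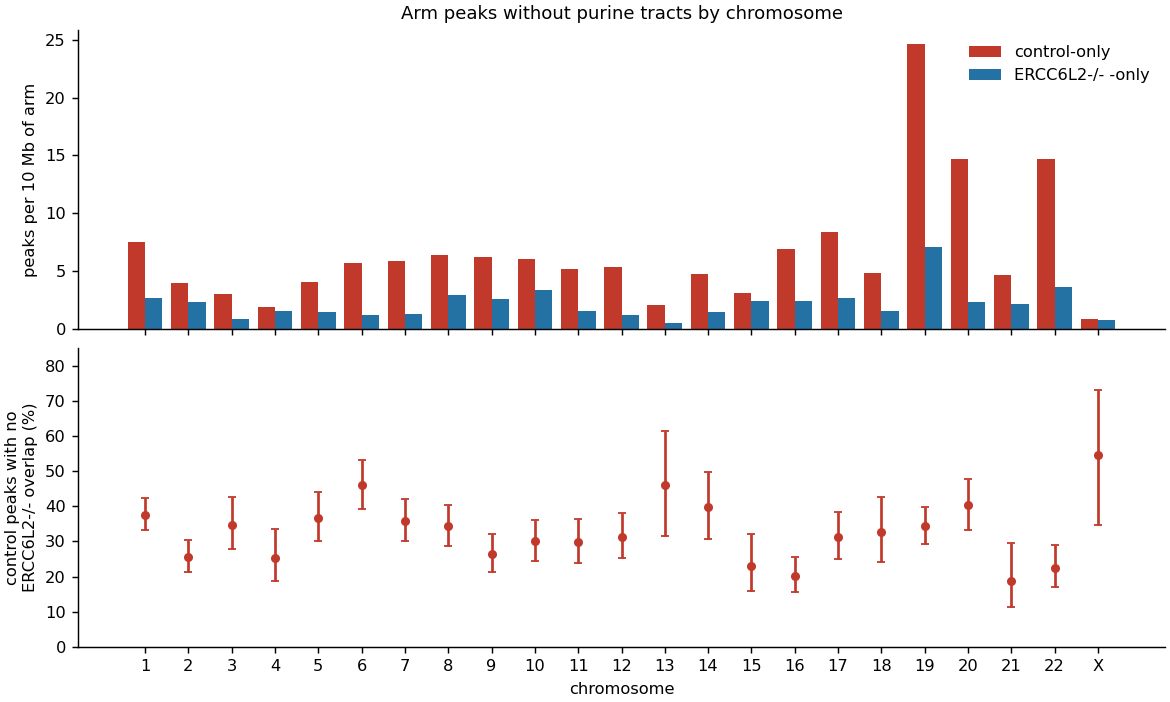
Top, members and ERCC6L2-/- -only peaks per 10 Mb of arm (y axis) by chromosome. Bottom, control arm peaks without tracts that had no ERCC6L2-/- overlap (percent, points) with Wilson 95% intervals. Chromosome 19 holds 24.6 members per 10 Mb, while the lowest and highest shares are those of chromosomes 21 (18.8%) and X (54.5%).

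Members were not near misses of the overlap. The median distance to the nearest ERCC6L2-/- peak was 85.8 kb, 129 members (9.34%) had one within 10 kb and 8 within 1 kb, the nearest at 344 bases. On the other side of the limit, the smallest overlap of any shared peak was 323 bases. At the remaining limits the members closest to a chromosome end and to a centromere lay at 3.01 Mb and 5.04 Mb, and the nearest control-only peaks outside lay at 2.99 Mb and 4.88 Mb. The median distance to the nearest other member was 291 kb, and 24.98% of members had another within 100 kb.

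**Figure D5:**
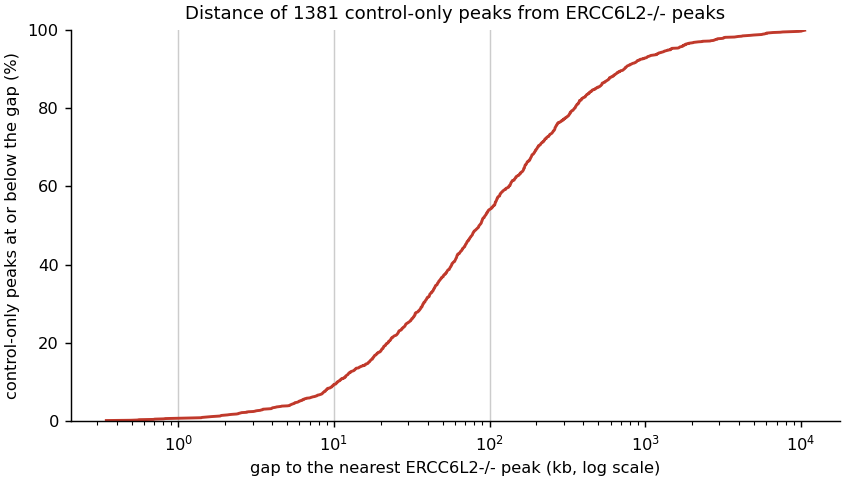
Cumulative share of the 1381 members (percent, y axis) by distance to the nearest ERCC6L2-/- consensus peak (kb, log scale, x axis), with grey lines at 1, 10 and 100 kb. The curve passes 9.34% at 10 kb and 54.02% at 100 kb.

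Chained at gaps of up to 100 kb, 1036 members stood alone, 111 chains held 2, 17 held 3, 13 held 4 and 4 held 5. The chain in RBFOX3 (chr17:79468307-79592496) held 5 members and 3 shared peaks. A chain on chromosome 7 (chr7:155793095-155935189) held 5 members and 1 shared peak and took in SHH, the gene of the Sonic hedgehog morphogen. A chain over CDH22, ELMO2 and SLC35C2 (chr20:46154814-46376820) held 5 members and no ERCC6L2-/- peak of any kind, and the same was true of the 4 members within 37.3 kb of CAMTA1 (chr1:7463164-7500463). On chromosome 19 a chain over 13 coding genes, among them IRF3 and PRMT1 (chr19:49544189-49768057), held 5 members, all purine-skewed, together with 1 shared and 1 ERCC6L2-/- -only peak. Beside it, only 1 member of the SHH chain and 1 of the CDH22 chain were purine-skewed.

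Among the members of highest score, ties at the ceiling were ordered by width. The widest (chr1:144328229-144330755, 2527 bases) and the next (chr9:64722850-64725330) were purine-skewed (75.7% purines in both) and AT-rich, with 26.9% and 28.9% G and C, and their 50-base words occurred in a median of 6 copies each. The third was the CAMTA1 peak. The fourth (chr13:35761411-35763674), outside annotated genes with DCLK1 as the nearest coding start at 92 kb, was 83.3% G or T in its centre and held a 60-base window that matched in full at a lag of 57 bases. The fifth (chr7:155615062-155617269), in RBM33-DT and ENSG00000283128, held such a window at a lag of 44 bases and 75% G or T in its centre. The last 3 were GT-skewed, as were 40.8% of all members at the ceiling.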

How the data were processed

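Nascent DNA of 3 control and 3 ERCC6L2-/- U2OS samples was measured. The authors trimmed the reads, mapped them with BOWTIE2 to hg38 (patch 12), removed duplicates with Picard, called peaks in each sample with MACS2 and merged the 3 samples of a genotype with MSPC. Tool versions and MACS2 settings are not given in the sources used here. The deposited consensus lists hold positions and, as score, the −log10 of the merged p-value (infinite above 310.576). The deposited lists of unique peaks were not used.

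Peaks were set against hg38 and GENCODE release 44 with Python 3.11.15, pysam 0.24.0, samtools 1.23.1 and blastn 2.17.0 (word size 7 and E-value at most 0.001 for RN7SL1). An overlap was at least 1 base. Shares have Wilson 95% intervals and differences Newcombe intervals. Fisher's exact tests came from scipy 1.17.1. Steps were tested on simulated data. Named genes were the coding genes over most members, named peaks those of highest score, then width, and named chains those with most members.

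The members, lists and features were chosen with earlier results of these data known. The skew classes and the restriction to 450 to 700 bases were chosen after seeing the data. Some sequences, words and genes are not reported here.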

Additional observations from a re-analysis of the deposited data

How the results depend on the processing

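No paired analysis was possible because each list was merged over the replicates of a genotype, and for the same reason leaving out a replicate could not be run. Differences are in percentage points of peaks, members minus the comparison group. Of 134 alternative values for the 14 comparisons, 110 kept direction and side of the 0.05 threshold, 10 no longer passed, 5 newly passed and 9 changed sign; of those 9, none had passed. The differences in tandem repeats and surrounding GC from the shared peaks and in GC from the ERCC6L2-/- -only peaks kept direction and call under every alternative run. The difference in tandem repeats was smaller in some, at -13.75 in the central 300 bases and -11.9 with a window of 100 bases. Peaks at or above the median score of their list were those at the score ceiling. With peaks at or above the median score of their list, GC against shared peaks was -1.76, surrounding GC against ERCC6L2-/- -only peaks 5.18, gene overlap 3.53 against shared and 2.28 against ERCC6L2-/- -only peaks, starts 2.48 (newly past the threshold) and -1.75, and single-copy sequence against ERCC6L2-/- -only peaks 7.53, and the control-only share was 17% in place of 32.0%. With a tract minimum of 20 bases, surrounding GC against ERCC6L2-/- -only peaks was 0.633 and starts were 2.43 (newly past) against shared and -3.20 against ERCC6L2-/- -only peaks. Surrounding GC against ERCC6L2-/- -only peaks was 0.0212 with peaks within 10 kb counted once and 4.19 over 1 Mb. With each chromosome left out in turn the highest values were 0.916 for surrounding GC and 1.18 for RN7SL1 matches against ERCC6L2-/- -only peaks, and 1.88 for starts against shared peaks (newly past). Starts within 5 kb gave 4.67 (newly past) and -0.129, and RN7SL1 matches of at least 75 bases 0.159 against shared peaks. Among peaks of 450 to 700 bases, chosen after seeing the data, surrounding GC was 2.36, RN7SL1 matches 0.259 and starts -3.22 against ERCC6L2-/- -only peaks, and against shared peaks gene overlap was 0.769, starts 3.34 (newly past) and single-copy sequence 3.13. The causes were not tested. Merged lists hide the read depth and the spread between samples, so none of these differences can be set against replicate error.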
